A study of Mus musculus with 14 samples.

Results

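A set of 10 genes for plasma proteins of the acute phase was followed in mouse liver, of the 17656 genes listed for each library. They were chosen by name: Orm1, Orm2, Orm3, Hp, Hpx, Lbp, Cp, Apcs, Crp and Itih4. The study injected concanavalin A (ConA), a plant lectin that activates T cells and causes an immune hepatitis in mice, and asked how the liver responds when the m6A reader Ythdf1 is missing. All mice were 8 weeks old C57BL/6 mice, and all livers were taken 8 h after an injection into the tail vein. There were 3 wild-type mice given saline (WT saline), 3 Ythdf1-/- mice given saline (KO saline), 4 wild-type mice given ConA at 8 mg/kg (WT ConA) and 4 Ythdf1-/- mice given the same dose (KO ConA). The deletion was carried by every cell of the mouse and was not limited to hepatocytes. The RNA came from whole liver, with 1 library for each mouse.

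The acute phase is the change in plasma proteins that follows infection or injury. Cytokines of the interleukin-6 family act on hepatocytes through STAT3, and interleukin-1 acts with them through NF-kB and C/EBP factors, so that the liver makes more of the positive acute-phase proteins and less of others such as albumin. The proteins followed here bind and carry. Orm1, Orm2 and Orm3 encode orosomucoids, lipocalins that carry small lipophilic molecules and drugs. Hp (haptoglobin) captures free haemoglobin and Hpx (hemopexin) captures free haem. Lbp binds bacterial lipopolysaccharide and passes it to CD14. Cp (ceruloplasmin) carries copper and oxidises iron. Apcs (serum amyloid P component) and Crp (C-reactive protein) are short pentraxins that bind damaged cells and microbes. In the mouse, Apcs is known as the more strongly induced of these pentraxins. Itih4 encodes a heavy chain of the inter-alpha-trypsin inhibitor family.

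Positions are those of RefSeq on GRCm38.p6. Orm1 (chr4:63344556-63348163), Orm3 (chr4:63356069-63359506) and Orm2 (chr4:63362449-63365877) follow each other on the plus strand, each with 6 exons. Apcs (chr1:172893961-172895054) and Crp (chr1:172698056-172699966) lie on the same chromosome, on opposite strands. The others are Hp (chr8:109575128-109579172), Hpx (chr7:105591611-105600116), Lbp (chr2:158306493-158332852), Cp (chr3:19956933-20009750) and Itih4 (chr14:30886476-30901986). The orosomucoid transcripts are close copies. Orm1 and Orm2 are 91.0% identical over their longest coding transcripts, Orm2 and Orm3 88.5%, and Orm1 and Orm3 86.5%. Of the stretches of 50 bases, the read length, 79.6% of Orm1, 77.3% of Orm2 and 96.4% of Orm3 are found in no other gene. The levels of Orm1 and Orm2 are therefore uncertain by the reads that the authors' counting could not place. For the other members this share was 98.8% to 100%. Apcs and Crp are 70.6% identical.

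RefSeq promoter windows, from 250 bases before to 50 bases after a start site, were found for 7 of the 10 genes, 8 windows in all because Cp has 2. Orm1, Hp and Lbp had no entry. Orm2, Orm3 and Itih4 are shown: the first are the paralogues that changed most and least with ConA, and Itih4 is the gene whose ConA difference differed most between genotypes. Capitals mark matches, on either strand, to a STAT motif (TTCNNNGAA) or a C/EBP motif (TTNNGNAA). The windows are chr4:63362199-63362498 for Orm2, chr4:63355908-63356207 for Orm3 and chr14:30886226-30886525 for Itih4, all on the plus strand.
Orm2: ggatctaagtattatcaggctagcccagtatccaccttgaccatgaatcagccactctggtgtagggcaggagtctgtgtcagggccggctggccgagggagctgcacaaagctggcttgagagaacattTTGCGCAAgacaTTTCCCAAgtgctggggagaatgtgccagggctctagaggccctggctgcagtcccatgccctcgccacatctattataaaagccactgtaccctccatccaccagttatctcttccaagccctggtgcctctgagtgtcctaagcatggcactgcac
Orm3: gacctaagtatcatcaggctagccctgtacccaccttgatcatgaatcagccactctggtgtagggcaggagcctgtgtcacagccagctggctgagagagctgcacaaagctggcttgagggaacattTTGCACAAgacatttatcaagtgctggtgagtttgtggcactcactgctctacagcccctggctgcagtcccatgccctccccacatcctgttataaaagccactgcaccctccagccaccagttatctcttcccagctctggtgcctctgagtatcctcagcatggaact
Itih4: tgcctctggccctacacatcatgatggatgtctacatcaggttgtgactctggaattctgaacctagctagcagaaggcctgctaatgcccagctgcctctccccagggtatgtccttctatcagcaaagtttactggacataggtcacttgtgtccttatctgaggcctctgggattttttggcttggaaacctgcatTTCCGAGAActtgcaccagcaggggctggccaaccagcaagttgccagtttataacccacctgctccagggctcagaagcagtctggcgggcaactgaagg

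The Orm2 and Orm3 windows are 89.2% identical (263 of 295 aligned bases). The Orm3 start site lies 89 bases inside its gene record, and that of Orm2 at the record's start. Orm2 holds 2 places that match C/EBP, TTGCGCAA at -120 to -113, which matches on both strands, and TTTCCCAA at -108 to -101. At the first place Orm3 has TTGCACAA, which differs at 1 base (G5A, counted from 1 at the 5′ end of the Orm2 match) and matches on 1 strand. At the second place Orm3 differs at 2 bases and has no match. Itih4 holds 1 STAT match, at -51 to -43.

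Of the 8 windows, 6 held a C/EBP match (Orm2, Orm3, Hpx, both of Cp, and Crp), against 40.7% of all 32817 windows in the table. 2 windows held a STAT match (Apcs and Itih4), against 8.29% of all. An NF-kB motif (GGG and CC with 5 bases between) was matched in 3 windows (1 of Cp, Crp and Itih4), against 50.8% of all. No window held both a C/EBP and a STAT match. A match is a string of letters and shows no binding.

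**Figure D1:**
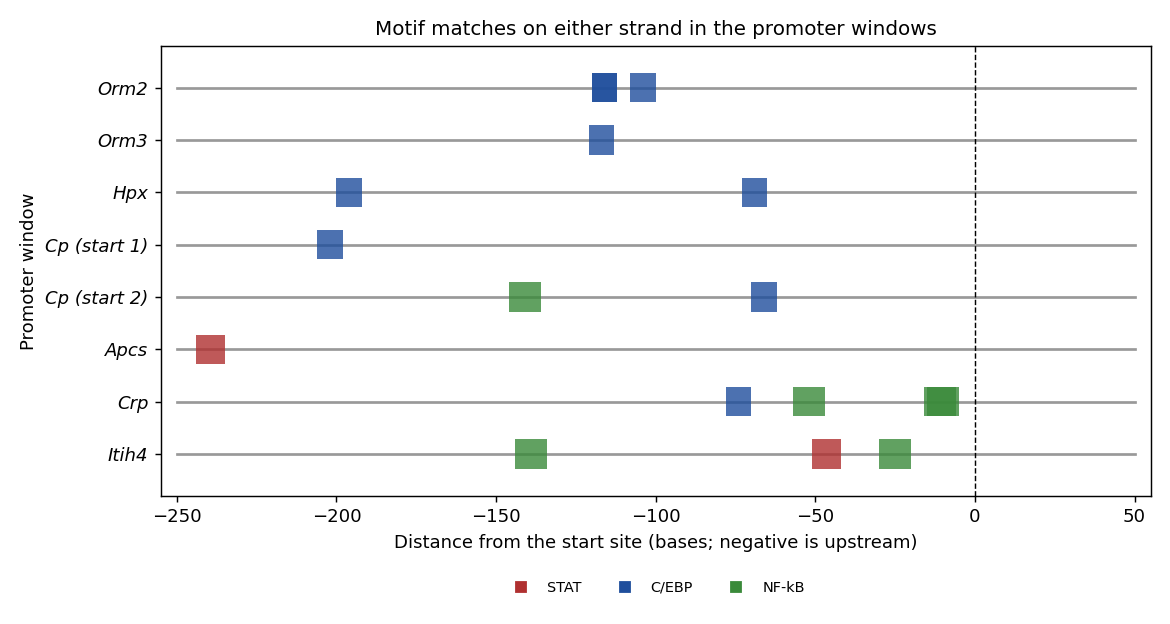
Places of motif matches in the 8 promoter windows, in bases from the start site (0, dashed line), with 1 line per window and 1 colour per motif. C/EBP matches (blue) stand in 6 windows, STAT matches (red) in Apcs and Itih4 only, and Orm3 has 1 C/EBP place where Orm2 has 2.

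The deposited values are TPM, the share of a gene among all transcripts after division by its length. TPM holds no number of reads, so depth and counting error are unknown and the spread between mice was the measure of error. Treatment separated the libraries along a first principal component with 75.4% of the variance. On the second (7.77%), both ConA replicates 3 stood apart from the rest of their own groups, and the saline mice split by genotype. The scale factors of these replicates by median ratio were 0.791 in WT and 0.847 in KO, against 0.966 to 1.19 in the other 12 libraries. WT saline replicates 2 and 3 were unusually close, with a median absolute log2 ratio of 0.0793 over all genes, against 0.128 to 0.397 in the other pairs. With saline, the WT mice had 12.03 to 13.9 TPM of Ythdf1 and the KO mice 18.4 to 20.8, and with ConA 18.7 to 25.6 and 15.5 to 26.2. The study places the deletion in a single exon, and a value over all exons cannot check the genotype label.

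In saline liver Hpx and Hp were the most abundant of the 10 genes, and Orm3 and Lbp the least. By mean TPM in WT saline Hpx ranked 25, Hp 28 and Orm1 68 of 17656 genes, whereas Lbp ranked 1240 and Orm3 1783. After ConA, Hp ranked 4, Hpx 5 and Orm1 16 in WT, and Hpx 4, Hp 5 and Orm1 17 in KO. Together the 10 genes made up 1.38% ± 0.09 (SD, n = 3) of the TPM in WT saline, 1.17% ± 0.12 (n = 3) in KO saline, 7.58% ± 0.71 (n = 4) in WT ConA and 7.22% ± 0.33 (n = 4) in KO ConA. The ConA libraries lay between 6.67% and 8.39% and the saline libraries between 1.06% and 1.49%. Hp, Hpx and Orm1 carried most of this, with 6.78% ± 0.68 in WT ConA and 6.41% ± 0.28 in KO ConA.

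In wild-type mice, ConA raised 9 of the 10 genes at 8 h. Orm2 rose most, followed by Apcs, Hp, Hpx, Orm1 and Lbp, and Itih4, Crp and Cp rose less. Orm3 did not pass the test. Each comparison was fitted with limma on log2(TPM + 1) values, and calls were made at an adjusted p below 0.05 (Benjamini-Hochberg, over all genes tested). In this comparison 53% of 10768 genes were called and 22% were called higher. In 9 of the 10 genes every ConA mouse lay above every saline mouse, as in 23.3% of all genes tested. The median log2 fold change of the 10 genes was 2.26, and that of all genes -0.07. In Ythdf1-/- mice, ConA raised all 10 genes, with no overlap between groups in any of them. There 64.6% of 10988 genes were called, 33.9% higher, and 32.8% had every ConA mouse above every saline mouse. The median of the 10 genes was 2.37 and that of all genes 0.07.

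**Figure D2:**
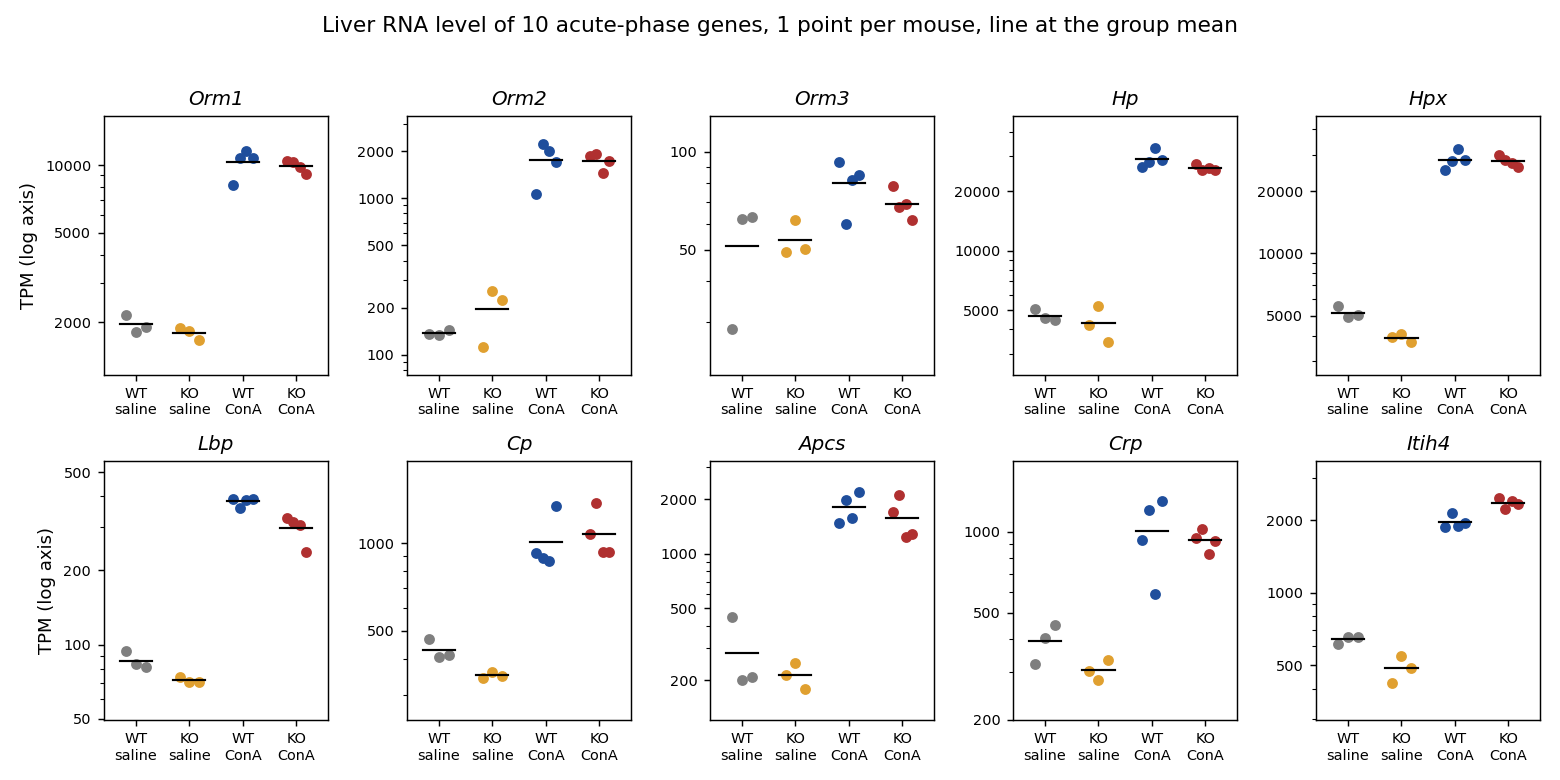
Level of each gene in each mouse, in TPM on a log axis whose range differs between panels, with 1 point per mouse and a line at the group mean (n = 3, 3, 4 and 4). Except for Orm3, each gene has all 8 ConA mice above all 6 saline mice. The KO ConA points of Itih4 lie above, and those of Lbp below, every WT ConA point.

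**Figure D3:**
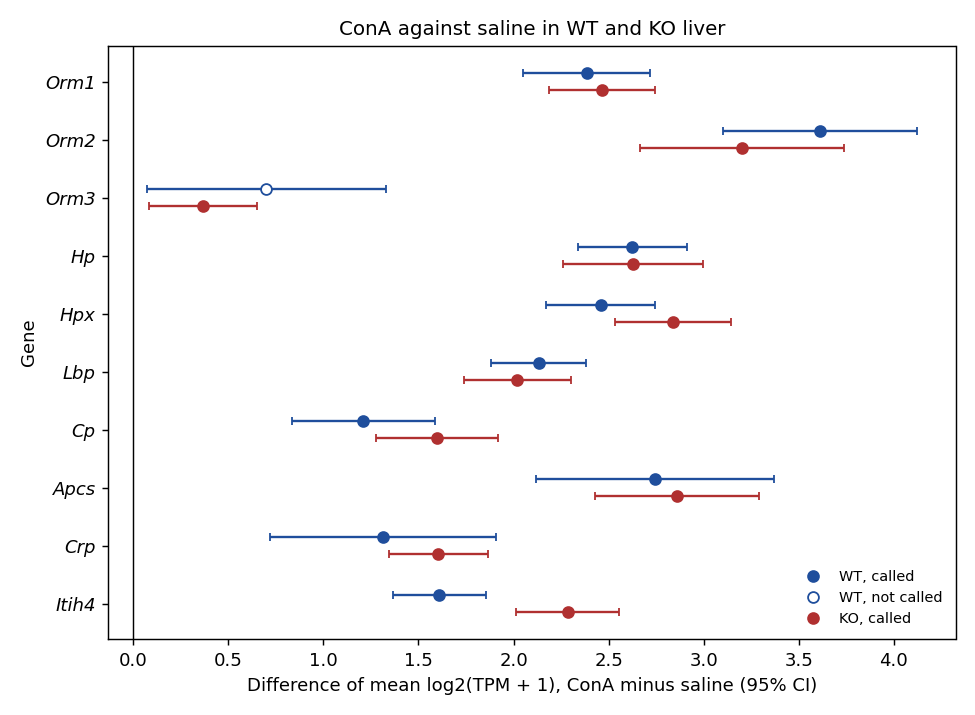
Difference of mean log2(TPM + 1) between ConA and saline for each gene, in WT (blue) and KO (red) mice, with 95% confidence intervals. Filled points were called. Orm2 lies furthest to the right (3.61 in WT, 3.20 in KO) and Orm3 closest to 0 (0.70 and 0.37), and the intervals of Itih4 in WT and KO do not overlap.

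Among the orosomucoids, Orm1 was the most abundant and Orm2 changed most. Orm1 had 2162, 1817 and 1910.1 TPM in the WT saline mice and 8164, 10798, 11523 and 10757 in the WT ConA mice. In KO mice it had 1881, 1824 and 1679.7 TPM with saline and 10379.8, 10308, 9852 and 9082 with ConA. All ConA mice lay far above all saline mice, with WT ConA replicate 1 the lowest of them. The log2 fold change was 2.38 ± 0.15 (SE, adjusted p = 2.97e-06) in WT and 2.46 ± 0.13 (adjusted p = 7.26e-08) in KO.

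Orm2 had 136, 134 and 143 TPM in WT saline and 1073, 2220.3, 2013 and 1712 in WT ConA. In KO saline it had 113, 255 and 225 TPM and in KO ConA 1857, 1915, 1444 and 1720.1. WT ConA replicate 1 was again the lowest of the ConA mice, and KO saline replicate 1 the lowest of the saline mice. ConA changed the mean log2 level by 3.61 ± 0.23 (adjusted p = 3.08e-06) in WT and 3.20 ± 0.24 (adjusted p = 1.07e-06) in KO. On the TPM scale, the mean was 12.7 times that of saline in WT and 8.77 times in KO.

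Orm3 stayed between 28.5 and 93.4 TPM in all 14 mice. It had 28.5, 62.0 and 63.2 TPM in WT saline and 93.4, 59.85, 81.7 and 84.8 in WT ConA, so the groups overlapped. The KO mice had 49.1, 61.5 and 50.25 TPM with saline and 78.3, 67.6, 69.2 and 61.9 with ConA, where the lowest ConA mouse lay just above the highest saline mouse. The difference was 0.70 ± 0.28 in WT (adjusted p = 0.0598, not called) and 0.37 ± 0.13 in KO (adjusted p = 0.0273, called). In WT it was called without WT saline replicate 2 (0.88, adjusted p = 0.0497) or 3 (0.89, 0.0455) and without WT ConA replicate 2 (0.83, 0.0444), and was 0.33 without WT saline replicate 1 (0.204). In KO the call was lost without KO saline replicate 1 (0.103) or 3 (0.0818) and without KO ConA replicate 1 (0.0714) or 2 (0.05003), after rescaling each library by its median ratio (0.33, 0.0824) and with all 14 libraries in the fit (0.174). With all 14 in the fit the WT difference was called (0.0176).

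The make-up of the orosomucoid RNA moved with ConA. In WT mice Orm2 made up 5.84% to 6.77% of the summed TPM of the 3 genes with saline and 11.5% to 17.0% with ConA, and in KO mice 5.52% to 11.9% and 12.7% to 15.8%. Orm3 went the other way, from 1.22% to 3.08% down to 0.458% to 1.001% in WT mice and from 2.40% to 2.87% down to 0.550% to 0.636% in KO mice. The ConA and saline ranges did not overlap within a genotype for either gene. The summed level rose from 2152 ± 159 TPM (SD, n = 3) in WT saline to 12145 ± 1926 (n = 4) in WT ConA, and was 2046 ± 92.6 in KO saline and 11709 ± 716 in KO ConA.

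Hp and Hpx, the scavengers of haemoglobin and haem, had the highest levels and a similar change. Hp had 5051, 4597 and 4463 TPM in WT saline and 26404, 28013, 32954 and 28944 in WT ConA. KO mice held 4228, 5236 and 3441 TPM with saline and 27382, 25475, 26345.5 and 25656 with ConA. On the log2 scale the rise was 2.62 ± 0.13 (adjusted p = 7.53e-07) in WT and 2.63 ± 0.17 (adjusted p = 3.23e-07) in KO. The interaction, the ConA difference in KO minus that in WT, was 0.0026 with a 95% interval from -0.42 to 0.42.

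Hpx had 5545, 4919 and 5013 TPM in WT saline and 25329, 28026, 31997 and 28296 in WT ConA. Levels in KO mice were 3938, 4054 and 3741 TPM with saline and 29937, 28309, 27592 and 26244 with ConA. All KO saline mice lay below all WT saline mice, and the ConA mice of both genotypes overlapped. This was a log2 fold change of 2.46 ± 0.13 (adjusted p = 1.03e-06) in WT and 2.84 ± 0.14 (adjusted p = 4.99e-08) in KO. The ratio of Hp to Hpx TPM lay between 0.890 and 0.935 in WT saline, 0.920 and 1.29 in KO saline, 0.9995 and 1.04 in WT ConA and 0.900 and 0.978 in KO ConA. After ConA the ratio was thus lower in every KO mouse than in every WT mouse.

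Lbp, the lipopolysaccharide carrier, had a low level and a narrow spread. It had 94.0, 83.6 and 81.0 TPM in WT saline and 390.5, 358, 386 and 388 in WT ConA. In the KO mice there were 74.1, 70.3 and 70.4 TPM with saline and 325, 314, 306 and 237 with ConA. In both treatments every KO mouse lay below every WT mouse. The log2 fold change with ConA was 2.13 ± 0.11 (adjusted p = 1.04e-06) in WT and 2.02 ± 0.13 (adjusted p = 3.03e-07) in KO.

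Cp rose less. It had 467, 407 and 413 TPM in WT saline and 928, 893, 869.6 and 1342 in WT ConA, where replicate 4 stood apart. The KO values were 343, 360.3 and 349.9 TPM with saline and 1078, 1375, 929.6 and 932 with ConA. The rise on the log2 scale was 1.21 ± 0.17 (adjusted p = 2.82e-04) in WT and 1.60 ± 0.15 (adjusted p = 4.26e-06) in KO.

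The pentraxins differed in their change. Apcs had 444, 201 and 208 TPM in WT saline, with replicate 1 apart from the others, and 1470, 1982, 1576 and 2192 in WT ConA. In KO liver it had 214, 249 and 178 TPM with saline and 1699, 2117, 1230.1 and 1278 with ConA. The log2 fold change was 2.75 ± 0.28 (adjusted p = 4.31e-05) in WT and 2.86 ± 0.20 (adjusted p = 5.21e-07) in KO.

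Crp had 322, 402 and 449 TPM in WT saline and 934, 1209.6, 585 and 1306 in WT ConA, with replicate 3 the lowest. KO mice had 304, 280.5 and 334 TPM with saline and 953, 1025, 830.1 and 925 with ConA. On the log2 scale ConA added 1.31 ± 0.26 (adjusted p = 0.00250) in WT and 1.60 ± 0.12 (adjusted p = 8.61e-07) in KO. Without both ConA replicates 3 it was 1.55 (adjusted p = 1.75e-04) and 1.66 (adjusted p = 3.28e-06). The ratio of Apcs to Crp TPM lay between 0.464 and 1.38 in WT saline and 0.535 and 0.887 in KO saline. It lay between 1.57 and 2.69 in WT ConA and between 1.38 and 2.07 in KO ConA, so that Apcs was the higher of the pentraxins in every ConA mouse.

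Itih4 changed more in KO than in WT mice. It had 612, 657 and 657 TPM in WT saline and 1876, 2141, 1899 and 1939 in WT ConA. In KO mice the levels were 423, 548 and 489.97 TPM with saline and 2472, 2232, 2404 and 2344 with ConA. Every KO saline mouse lay below every WT saline mouse, and every KO ConA mouse above every WT ConA mouse. The change with ConA was 1.61 ± 0.11 (adjusted p = 4.58e-06) in WT and 2.28 ± 0.12 (adjusted p = 9.57e-08) in KO.

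The interaction of genotype and ConA was tested with all 14 libraries, and 4.78% of 11327 genes were called. Among the 10 genes 1 was called, Itih4, with 0.67 ± 0.15 (95% interval 0.35 to 0.99, adjusted p = 0.0307). The call was lost without WT saline replicate 2 (0.66, adjusted p = 0.104) or 3 (0.66, 0.101), without KO saline replicate 1 (0.58, 0.0910) or KO ConA replicate 4 (0.68, 0.0592), with WT saline replicates 2 and 3 averaged (0.66, 0.104) and after rescaling each library by its median ratio (0.53, 0.160). Over all 22 alternatives the value lay between 0.53 and 0.76. Hpx had 0.38 (95% interval 0.04 to 0.73, adjusted p = 0.160) and Cp 0.39 (-0.10 to 0.88, adjusted p = 0.295). Orm2 (-0.41, -1.19 to 0.38) and Orm3 (-0.33, -1.03 to 0.36) had negative values with wide intervals. The other 5 genes lay between -0.11 for Lbp and 0.29 for Crp.

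In saline mice the KO livers held less Hpx and Itih4 RNA, the 2 genes called. Hpx was lower by 0.40 ± 0.10 on the log2 scale (a difference of -0.40, adjusted p = 0.0348) and Itih4 by 0.41 ± 0.11 (-0.41, adjusted p = 0.0458). In this comparison 19.2% of 10459 genes were called and 12.9% were called lower. For Hpx, Lbp, Cp and Itih4 every KO mouse lay below every WT mouse, 4 of 10 genes without overlap against 42.3% of all genes. Lbp differed by -0.26 (adjusted p = 0.0740), Cp by -0.29 (0.0620) and Crp by -0.34 (0.113). Orm1 (-0.13), Hp (-0.15), Apcs (-0.32), Orm2 (0.44) and Orm3 (0.14) had intervals that held 0. The median was -0.27 over the 10 genes and -0.10 over all genes tested.

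Both saline calls were lost in most fits with 1 library left out. The call of Itih4 was lost when any 1 of the 6 mice was left out, and that of Hpx without any mouse but KO saline replicate 3, while the values stayed between -0.49 and -0.31 for Itih4 and between -0.43 and -0.34 for Hpx. With WT saline replicates 2 and 3 averaged, Hpx had -0.42 (adjusted p = 0.119) and Itih4 -0.39 (adjusted p = 0.160). Over all genes the count fell from 2009 to 45 without WT saline replicate 3 and to 51 without replicate 2. Orm2 was called higher without KO saline replicate 1 (0.80, adjusted p = 0.0213) and Crp lower without WT saline replicate 1 (-0.48, adjusted p = 0.0341).

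After ConA, 0 of the 10 genes were called between KO and WT mice, in a comparison with 0.428% of 10519 genes called by limma (45 genes, and 1753 at an unadjusted p under 0.05). At an unadjusted p under 0.05 there were 2 of the 10, Lbp and Itih4, which were also the 2 without overlap, against 10.5% of all genes. Lbp was at 381 ± 15.0 TPM (SD, n = 4) in WT ConA and 296 ± 39.5 (n = 4) in KO ConA, a log2 difference of -0.37 (95% interval -0.65 to -0.10, adjusted p = 0.176). Itih4 was at 1964 ± 121 and 2363 ± 102 TPM, a difference of 0.27 (0.03 to 0.51, adjusted p = 0.248). The most abundant genes differed little, with intervals from -0.31 to 0.27 for Hpx, from -0.43 to 0.14 for Hp and from -0.36 to 0.26 for Orm1. The intervals of Orm2 (-0.44 to 0.49) and Crp (-0.54 to 0.44) were wider.

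**Figure D4:**
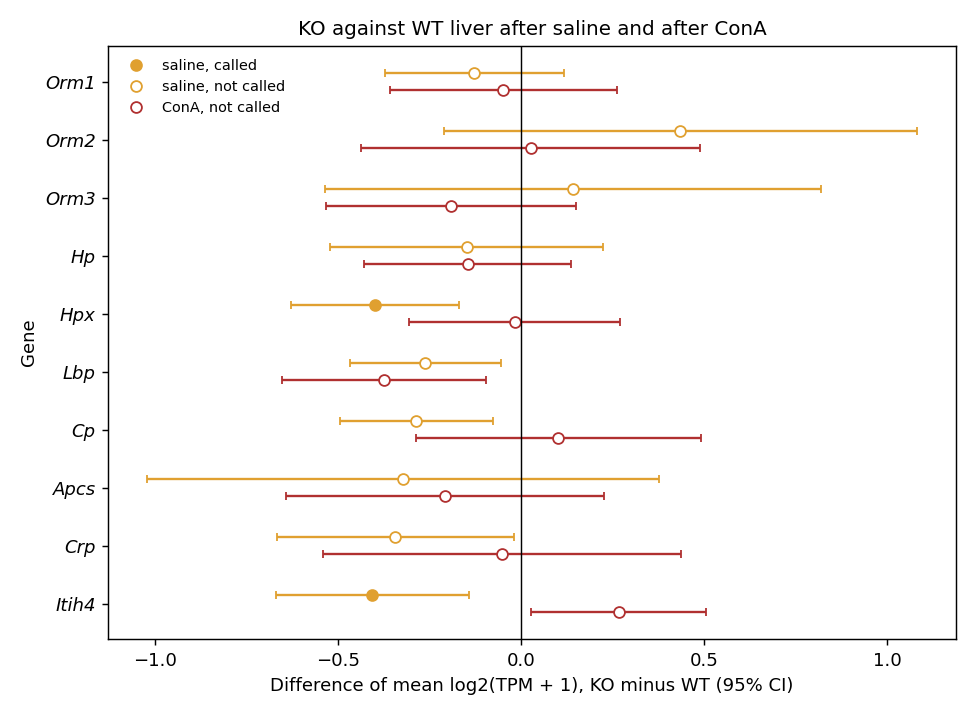
Difference of mean log2(TPM + 1) between KO and WT mice for each gene, after saline (orange) and after ConA (red), with 95% confidence intervals. Filled points were called. Hpx (-0.40) and Itih4 (-0.41) were called in saline, none after ConA, and Itih4 lies left of 0 in saline and right of 0 after ConA (0.27).

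The order of the 4 groups was alike for most of the genes. In Orm1, Hp, Apcs and Crp the mean fell from WT ConA to KO ConA, WT saline and KO saline, and the genotypes overlapped within each treatment. Hpx and Lbp had the same order, but the saline groups did not overlap, and for Lbp the ConA groups did not either. In Cp and Itih4 the KO ConA mean was the highest and the KO saline mean the lowest. In Orm2 and Orm3 the saline groups overlapped and stood in the opposite order, KO above WT.

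The regulators of these genes were described from a list of 19 receptors, kinases and factors. ConA raised 10 and lowered 3 of 19 in WT, and raised 13 and lowered 1 in KO. Of all genes, 53% in WT and 64.6% in KO were called, and 22% and 33.9% were called higher. Socs3, the feedback inhibitor of STAT3 signalling, rose by 3.31 in WT and 4.38 in KO on the log2 scale, and the interleukin-1 receptor Il1r1 by 3.32 and 3.43. Cebpd, a C/EBP factor of the acute phase, rose by 2.85 in WT, and Stat3 by 2.70 in KO. Both were also higher with ConA in the other genotype. Mean Cebpd in KO liver went from 7.97 to 50.7 TPM, and mean Stat3 in WT liver from 24.8 to 91.3 TPM. Lower were Il1rap, a partner of Il1r1 (-1.69 and -1.53), and in WT also Lifr (-1.57) and Cebpa (-0.59). In saline, KO mice had 2 of 18 higher and 5 lower, with Il6ra at -1.13 and Stat3 at -0.47. There 19.2% of all genes were called. The interaction was called for Stat3 (0.89) alone, beside 4.78% of all genes.

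Partners of the scavengers moved both ways. Of 10 genes for haem and haemoglobin handling, 2 rose and 5 fell in WT, and 2 rose and 4 fell in KO, where 53% and 64.6% of all genes were called. Hmox1, which breaks haem down, rose by 4.44 and 5.29 on the log2 scale and the haem exporter Flvcr1 by 0.92 and 1.17. Cd163, the macrophage receptor for haptoglobin bound to haemoglobin, fell (-1.58 and -1.25). It was at 1.08 to 3.54 TPM with saline and 0.11 to 0.22 with ConA, so low that the log2(TPM + 1) scale understates its fall. The medians of the 7 Kupffer cell markers were -1.63 and -1.31, and their part in the fall of Cd163 was not tested. Lower too were Blvrb (-1.43 and -1.78) and Ftl1 (-0.98 and -1.14). Of 8 tested partners of ceruloplasmin, 1 rose and 3 fell in WT, and 3 rose and 4 fell in KO, among them the iron exporter Slc40a1 (-2.64 and -2.60) and the copper pump Atp7b (-1.19 and -0.99). The 4 of 8 called in WT are near the share of all genes.

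Of 8 tested genes for lipopolysaccharide sensing, 6 rose in WT and 7 in KO, and none fell. Over all genes, 22% in WT and 33.9% in KO were called higher. Cd14, to which Lbp hands its cargo, rose by 5.62 and 7.08 on the log2 scale and the adaptor Myd88 by 2.06 and 2.16. From the list of pentraxins and their receptors 8 genes were tested, and none of them was a pentraxin. In WT 1 rose and 3 fell, the complement genes C1qa (-1.51), C1qb (-1.40) and C1qc (-1.74). In KO 3 rose, and both counts were again near or below the share of all genes. Ptx3 and Nptx1, the pentraxins of the list, stayed at 0.69 TPM or less in every mouse. In the inter-alpha-trypsin inhibitor family without Itih4, 2 rose and 3 fell of 5 in WT, and 3 rose and 1 fell in KO. The shares called over all genes were 53% and 64.6%. Itih3, like Itih4 a heavy chain, rose by 1.002 and 1.80, was lower in KO saline (-0.53, adjusted p = 0.0393) and had a called interaction (0.80, adjusted p = 0.0280). Itih2 fell in WT (-0.65), rose in KO (0.35) and had an interaction of 1.003 (adjusted p = 0.0280).

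Of 16 other positive acute-phase genes, 15 rose in WT and 14 in KO, where 22% and 33.9% of all genes were called higher. Their medians were 2.28 and 2.92 on the log2 scale, against 2.26 and 2.37 for the 10 genes described. Saa2 rose by 8.60 and 9.72 and Saa3 by 8.85 and 8.16, far more than Orm2. In KO saline 8 of the 16 were lower than in WT saline, against 12.9% of all genes, and the interaction was called for 6, against 4.78%, among them Serpina3m (2.22), Serpina3n (1.66) and Saa1 (1.54). Of 10 negative acute-phase genes, 8 fell in each genotype, among them Serpina6 (-2.04 and -2.01) and Rbp4 (-1.64 and -1.57), and transferrin (Trf) rose in KO (1.03). In either direction, 53% of all genes were called in WT and 64.6% in KO. Over the 8 lists, limma called 0 of 82 tested genes between KO ConA and WT ConA, and 21 had an unadjusted p under 0.05.

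Markers of other cells moved with ConA. Whole liver was sequenced, so fewer cells of a type and less RNA per cell cannot be told apart. The 8 hepatocyte markers summed to 109306 to 135805 TPM in saline mice and to 53942 to 82240 in ConA mice. In each genotype 6 of 8 were lower, while 1 was higher in WT and 2 in KO. Of the 10 genes described, 9 rose in WT and all 10 in KO. Over all genes, 53% were called in WT and 64.6% in KO. Of 10 neutrophil markers 8 were tested and 7 rose in each genotype. The neutrophil marker Ly6g did not rise. It was at 0.57 to 5.04 TPM in WT saline and 0.18 to 1.64 in WT ConA. In KO mice it was at 1.61 to 2.31 TPM with saline and 1.15 to 2.47 with ConA. The 10 markers summed to 5.41 to 11.8 TPM in saline mice. After ConA they summed to 326 to 575 in WT mice and 424 to 978 in KO mice, mostly S100a8 and S100a9. Mpo and Elane were at 0.26 TPM or less in every mouse. In the ConA mice Hp, which neutrophils also make, was at 25475 TPM or more. Kupffer cell markers summed to 66.0 to 115 TPM in WT saline and 28.3 to 62.1 in KO saline, and to 5.70 to 30.9 in the ConA mice, and 6 of 7 fell with ConA in WT and 4 of 7 in KO. Adipocyte markers summed to 0.82 to 2.15 TPM with saline and 2.24 to 14.3 with ConA. The 1 tested marker, Cidec, rose in each genotype and made up most of each ConA sum. Adipoq was at 0.2 TPM or less in every mouse, and Plin1, Lep and Cfd were at 0.56 TPM or less.

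Markers of other cells also differed between the saline groups, in which Hpx and Itih4 were lower in KO. Sinusoidal endothelial markers summed to 14.1 to 22.6 TPM in WT saline and 23.6 to 41.0 in KO saline, with 3 of 5 tested genes higher. Stellate cell markers summed to 7.47 to 29.5 TPM in WT and 30.5 to 48.6 in KO, with 2 of 6 higher. T cell markers were at 1.17 to 2.12 TPM in WT and 2.82 to 3.6 in KO, with 0 of 7 markers high enough to be tested. For each of these lists, and for the Kupffer cell markers (0 of 7 called), the summed levels of the saline genotypes did not overlap. Among all single genes tested in saline, 42.3% had no overlap either and 19.2% were called. Of the 8 hepatocyte markers 2 were lower in KO saline, and their sums overlapped (117445 to 135805 TPM in WT and 109306 to 127467 in KO). With ConA, endothelial markers summed to 11.3 to 35.8 TPM and stellate cell markers to 3.37 to 13.3. Against saline, 2 of 6 endothelial markers were called higher and 3 lower in each genotype. Of the stellate markers, 4 of 6 were called lower in KO ConA than in KO saline, and in WT the 1 tested was lower. The shares called over all genes were 53% in WT and 64.6% in KO. Between KO ConA and WT ConA, 0 markers of either list were called. The part of these changes in the levels of the 10 genes was not tested.

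The genes most alike were taken as the gene with the highest Pearson correlation of log2(TPM + 1) over the 14 libraries, among 11327 genes. The libraries form 2 clusters by treatment, so that each value mainly restates the change with ConA. Hp was most like Lcn2 (r = 0.998), Hpx like Saa2 (0.998), Orm1 like Stap2 (0.997), Itih4 like Serpina3n (0.996) and Crp like Ifi44 (0.991). Orm2 was most like Saa3 (0.988), Lbp like Elf3 (0.988), Cp like B3galt1 (0.983) and Apcs like Cxcl1 (0.982). Orm3 stood apart with its highest value at 0.793, for Rce1.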

How the data were processed

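The authors sequenced total liver RNA on a BGISEQ-500 from one end, with a read length of 50 bases. The deposited values are TPM per gene, computed by the authors, in 14 tables of 1 mouse each. The submitters' processing notes name Bowtie2, RSEM 1.3.1 and GRCm38.p6, whereas the study's methods name STAR and HTSeq, and which made the tables is open. TPM holds no depth, so only the spread between mice gives precision.

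Groups came from the sample labels. The libraries are separate mice. Values were put on the log2(TPM + 1) scale and fitted in R 4.3.3 across all genes, with lmFit and a trended eBayes of limma 3.58.1. Tested genes reached a TPM of 1 in a number of libraries equal to the size of the smaller group, and calls took an adjusted p (Benjamini-Hochberg) below 0.05. The 4 pairwise fits held their own groups and the interaction all 14 libraries. Fold changes on this scale understate changes of low genes. The procedure was tested on simulated data. Other settings tried were a filter at a TPM of 5 or none, a pseudocount of 0.1, rescaling by median ratio, 1 fit over all 14 libraries, eBayes made robust, the replicate number as a block, each library left out, WT saline replicates 2 and 3 averaged, and both ConA replicates 3 left out (the last 2 chosen with earlier results known).

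Named are the 10 genes, the called genes of each list with the largest change (at most 3 each way in a comparison), the most alike gene of each member, and the leading or defining markers. The members, the 8 pathway lists (regulators, haem, copper and iron, lipopolysaccharide sensing, pentraxins, inter-alpha-trypsin inhibitors, other positive and negative acute-phase genes) and the 7 marker lists were chosen with earlier results of these data known, and 1 gene and 1 motif of the planned lists are not reported here. Promoters and gene positions came from RefSeq, and shared stretches and identities from GENCODE vM21 transcripts, with Python 3.11.15, pandas 2.3.3 and Biopython 1.88.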

Additional observations from a re-analysis of the deposited data

Results flagged for a closer look

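In 20 groups of 4 ConA mice, 1 for each of the 10 genes and genotype, 2 held a mouse whose gap to the others was wide against the range of its group (above Dixon's 95% critical value), where chance gives about 1 in 20 groups. Lbp in WT ConA replicate 2 was at 358.4 TPM, with the others between 386 and 390.5. Cp in WT ConA replicate 4 was at 1342 TPM, with the others between 869.6 and 928. The difference with ConA differed between the genotypes for Itih4, with an interaction of 0.67 on the log2 scale.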

How the results depend on the processing

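Apart from Orm3, each ConA call of the 10 genes held in every alternative. With 1 library left out, 9 to 10 of them were called in WT (9 with all) and 9 to 10 in KO (10 with all). Between KO and WT after ConA, 0 were called in any alternative. The count called between KO and WT in saline, 2, became 0 with no filter, after rescaling, with WT saline replicates 2 and 3 averaged or with all 14 libraries in the fit. It was 0 to 1 with 1 library left out. The 1 was Crp without WT saline replicate 1, Orm2 (higher in KO) without KO saline replicate 1, and Hpx without KO saline replicate 3. The 1 gene called for the interaction became 0 after rescaling and with those replicates averaged, and 0 to 1 with 1 library left out. Under the alternatives 763 differences of the members kept their sign and side of the threshold, 31 lost the call, 7 gained it and 29 changed sign. The changes of sign were in 12 of 50 differences, 0 of them called. With 1 library left out, KO against WT in saline lay between -0.23 and 0.33 for Orm3, -0.52 and 0.050 for Apcs, and -0.30 and 0.0024 for Hp. After ConA it lay between -0.19 and 0.16 for Orm2, -0.29 and 0.095 for Crp, -0.16 and 0.0098 for Orm1, -0.070 and 0.042 for Hpx, and -0.021 and 0.25 for Cp. The interaction lay between -0.029 and 0.14 for Orm1, -0.15 and 0.15 for Hp, -0.26 and 0.31 for Apcs, and -0.53 and 0.037 for Orm3. Rescaling gave -0.052 for Orm2 after ConA, and interactions of -0.060 for Orm1, -0.14 for Hp and -0.024 for Apcs. Without both ConA replicates 3 the difference between the ConA groups was 0.012 for Orm1 and 0.049 for Hpx. The cause was not tested.

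Over all genes, the 2009 calls in saline became 958 with no filter, 332 with all 14 libraries, 49 with the averaged replicates and 45 to 2739 with 1 library left out (286 without KO saline replicate 1 and 640 without KO saline replicate 2). The 45 calls between KO ConA and WT ConA became 3 with no filter, 25 after rescaling, 640 with all 14 libraries, 140 with the block and 5 to 52 with 1 left out, the lowest without KO ConA replicate 4. The 541 interaction calls became 345 with no filter, 358 with the block, 28 with the averaged replicates, 1591 without both ConA replicates 3 and 22 to 769 with 1 left out. With 1 left out, there were 4585 to 7048 ConA calls in WT mice and 6326 to 7814 in KO mice. Of the counts called in the 8 pathway lists, 113 moved by over 1.5 times, or to or from 0, under an alternative and 551 did not. Rescaling moved the interaction of Hpx by -0.14 and its other differences by less than 0.1 in either direction. It moved the share of calls that were higher from 32.8% (659 higher, 1350 lower) to 49.1% (744 and 771) in saline and from 80% (36 and 9) to 48% (12 and 13) after ConA.

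Correlations of same-numbered deviations ran from -0.19 to 0.41, and not all were over 0.1. The highest was that of the WT and KO ConA replicates 3. With so few mice in a group, these correlations cannot settle whether the replicate numbers pair the mice. In no comparison did every mouse correlate best with its own number. With the replicate block, the members called stayed 9 and 10 with ConA, 2 in saline, 0 between the ConA groups and 1 for the interaction. In the comparisons with saline the block leaves ConA replicate 4 without a partner. With TPM alone, what depth limits is unknown.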
